A study of Rattus norvegicus with 50 samples.

Results

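Genes that turn over between fasting and feeding to set how the liver handles glucose were followed across all 50 liver samples of the series. The 9 genes chosen by symbol were Gckr, Pfkfb1, Pklr, Pck1, Sds, Tat, Angptl4, Igfbp1 and Irs2. Of these, 8 had a probe set with a single gene symbol and were among the 14506 genes tested, and Irs2 was not analysed here. Each of the 8 had 1 probe set. The samples were livers of male Sprague Dawley rats of about 3 months, taken as punches of the median lobe, and RNA was hybridised to Affymetrix Rat Gene 1.0 ST arrays, with 5 arrays in each of 10 groups. Controlled cortical impact, a model of traumatic brain injury in which a piston deforms the exposed cortex, was followed by saline vehicle, by erythropoietin (EPO, the hormone that drives red cell formation) at 2500 IU/kg, or by anakinra (a recombinant antagonist of the interleukin-1 receptor) at 100 mg/kg. Liver was taken 24 h, 72 h or 7 days after injury in each of these 3 arms. The remaining group was sham-operated, for which the labels name neither a time nor a vehicle, so every injured group was compared with the same 5 sham livers. Neither the labels nor the design text gives the dosing schedule, the feeding state or the time of day at which tissue was taken. The sources do not describe how arrays relate to animals beyond a number within each group, so p-values measure the spread between these arrays.

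In the fed liver, insulin and glucose favour glycolysis, glycogen storage and fat synthesis, and pyruvate kinase and the kinase activity of the bifunctional enzyme encoded by Pfkfb1 push carbon down the glycolytic path. In fasting, glucagon, glucocorticoids and falling insulin raise the enzymes that make glucose from lactate and amino acids, among them Pck1, Tat and Sds, and raise secreted factors such as Angptl4 and Igfbp1. Much of this control is on transcription in hepatocytes, so the messenger levels of these genes are used as readouts of the switch.

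Gckr, Pklr, Pfkfb1 and Angptl4 each had at least 1 call below sham in injured livers, and the gluconeogenic gene Pck1, the amino acid enzyme Tat and the insulin-repressed gene Igfbp1 gave no call in any comparison. In the vehicle arm Gckr and Pklr were lowest 24 h after injury, at 1.39-fold and 1.87-fold below sham. Pfkfb1 and Angptl4 were 1.84-fold and 2.27-fold below sham over the 6 groups at 72 h and 7 days pooled, 4 of which received a drug, and neither was called at any single time in the vehicle arm. Sds also gave no call in any comparison of the main fit. It varied most between single arrays and had its lowest group means at 7 days with either drug. Values are log2 probe-set intensities after robust multi-array averaging (RMA), a call is an adjusted p under 0.05 by limma over all genes tested, and a difference of 1 on this scale is a doubling.

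Arrays were similar in their overall distribution, with medians from 6.66 to 6.89 and standard deviations from 1.99 to 2.16. The 5 arrays of lowest spread included 4 of vehicle groups, and results were recomputed without them. The tissue had the hepatocyte markers of liver: 9 of 10 were measured, with Alb at a mean of 13.98 and Ttr at 13.57, and their summed level lay between 16.27 and 16.32 in sham livers, 16.22 and 16.36 at 24 h, and 16.20 and 16.34 later. Summed erythroid markers, 9 of 10 measured, lay between 9.95 and 10.83 in sham livers and 9.92 and 10.97 at 24 h, and between 9.58 and 14.03 later. In bulk tissue, fewer cells of a type and less RNA per cell cannot be told apart.

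**Figure D1:**
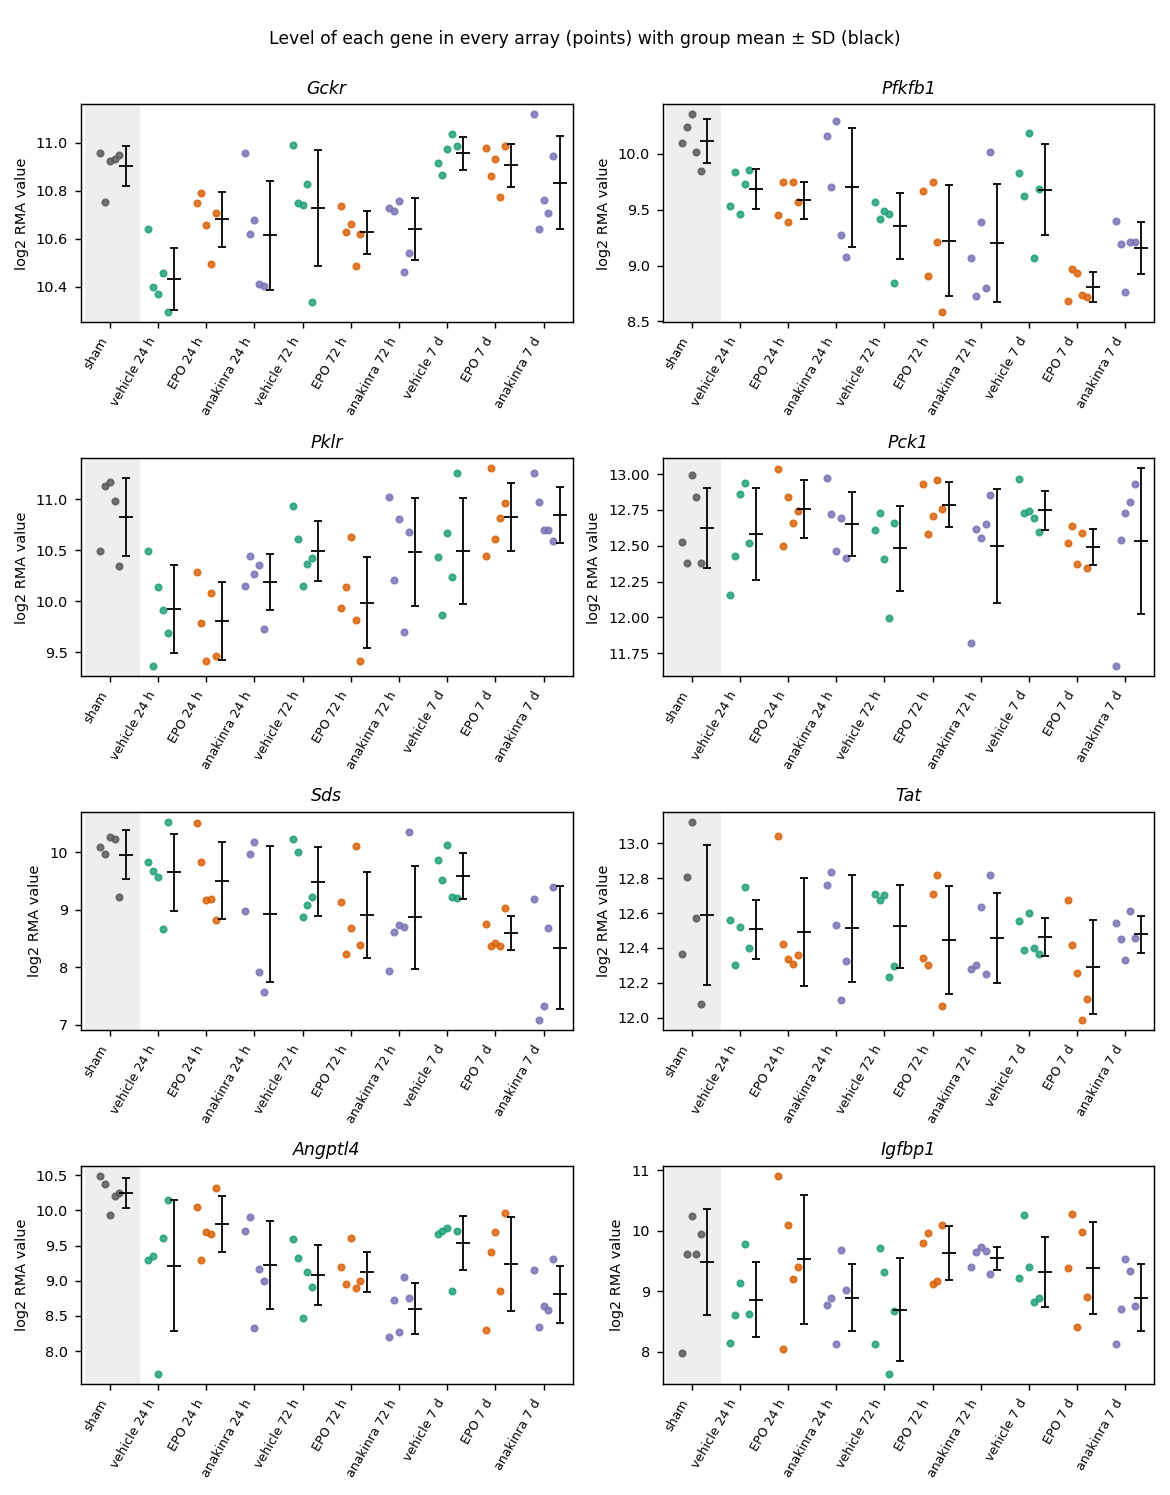
Log2 RMA intensity (y axis) of the 8 genes in the 10 groups (x axis). Points are single arrays and bars are the group mean with its SD (n = 5). Sham has the highest group mean of Pfkfb1 (10.11) and Angptl4 (10.25), and EPO at 24 h the lowest of Pklr (9.81).

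The comparisons that follow ask how the livers of injured rats differ from sham, how the response changes with time, and whether either drug shifts it. Over all 10 groups together, 4 of the 8 genes differed by limma's F test, against 5.67% of all genes tested. They were Pfkfb1 (adjusted p = 0.000786), Gckr (0.00127), Pklr (0.00263) and Angptl4 (0.00542), and the other 4 had adjusted p from 0.109 for Sds to 0.929 for Tat. When the group means of Pfkfb1, Gckr, Pklr and Angptl4 were put in order, neighbours mostly differed by less than the larger of their SDs. The exceptions were EPO at 7 days, which lay below the next group for Pfkfb1, and sham, which lay above the next group for Angptl4. For vehicle at 24 h against sham, 2 of 8 genes were lower and none higher, against 0.827% of all genes called in either direction. The members' median difference was -0.45 there, against 0.04 over all genes. With the 3 arms at 24 h pooled against sham, 2 of 8 were lower, against 1.23% of all genes, with a median of -0.42 against 0.02. With the 6 later groups pooled against sham, another 2 of 8 were lower, against 1.01%, with a median of -0.27 against 0.01. These shares of all genes depended on single arrays. The 1.01% fell to between 0.0965% (without sham array 2) and 0.407% when sham array 1, 2, 3 or 5 was left out. The 1.23% fell to between 0.627% and 0.786% without sham array 2, 3, 4 or 5, and the 0.827% to between 0.386% and 0.517% when any 1 of sham arrays 2 to 5, or vehicle array 3 or 4 at 24 h, was dropped. These comparisons share the sham arrays and are not independent of each other. The 8 genes were chosen with earlier results of these data known, so the contrasts with all genes are descriptions and not tests.

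Gckr encodes the glucokinase regulatory protein, which holds glucokinase inactive in the hepatocyte nucleus when glucose is low. Its sham values were 10.96, 10.75, 10.93, 10.93 and 10.95, and its vehicle values at 24 h were 10.64, 10.40, 10.37, 10.46 and 10.29. The groups did not overlap, and every vehicle array at 24 h lay below the lowest sham array. The means were 10.43 ± 0.13 (SD, n = 5) and 10.90 ± 0.08 (SD, n = 5), a difference of -0.47 (SE 0.10, limma adjusted p = 0.00696). This call held when any single array was left out, with adjusted p up to 0.0264, and under each of 8 alternative settings, with adjusted p up to 0.0386.

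The other arms at 24 h gave Gckr means of 10.68 ± 0.11 with EPO and 10.61 ± 0.23 with anakinra (SD, n = 5 each). Of the 15 injured arrays at 24 h, 13 lay below every sham array, and the pooled difference was -0.33 (adjusted p = 0.0175). That pooled call ended when sham array 1, 3, 4 or 5 was left out, with adjusted p up to 0.0725. At 72 h the means were 10.73 ± 0.24 with vehicle, 10.63 ± 0.09 with EPO and 10.64 ± 0.13 with anakinra. At 7 days the vehicle values were 10.91, 10.86, 10.97, 11.04 and 10.99, which overlapped sham, and the means of the 3 arms were 10.96 ± 0.07, 10.91 ± 0.09 and 10.83 ± 0.19.

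Gckr means were lowest with vehicle at 24 h and highest with vehicle at 7 days, with the other groups between. Pooled, the 24 h groups were lower than the later ones by a difference of -0.21 (limma adjusted p = 0.00524). With EPO and anakinra, the means at 24 h (10.68 and 10.61) were close to those at 72 h (10.63 and 10.64). Within the vehicle arm, Gckr was the 1 of 8 genes that varied over the 3 times by the F test (adjusted p = 0.0217), against 0.0689% of all genes. That call ended without vehicle array 2 or 5 at 24 h or array 4 or 5 at 7 days, with adjusted p up to 0.140, and when only the 3 vehicle groups were fitted, with adjusted p = 0.539. EPO and vehicle at 24 h differed by 0.25 (95% interval 0.06 to 0.44, adjusted p = 0.442), which was not a call.

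Levels of 4 circadian clock genes, picked after their values had been seen, are given beside these results. Dbp, a clock output gene, had a mean of 7.65 in sham, 9.23 in vehicle, 8.25 in EPO and 8.69 in anakinra at 24 h, and 7.61 in vehicle at 7 days. At 72 h its means were 8.57 in vehicle, 7.91 in EPO and 8.17 in anakinra. Bmal1, a core clock gene whose transcript peaks opposite to that of Dbp, stood at 9.26 in sham, 8.56, 9.17 and 8.92 in vehicle, EPO and anakinra at 24 h, and 9.24 in vehicle at 7 days. At 72 h Bmal1 stood at 8.82, 9.01 and 9.04 in vehicle, EPO and anakinra. Per3 had 6.36 in sham and 7.48, 6.80 and 7.17 in vehicle, EPO and anakinra at 24 h, and Nr1d1 had 8.86 in sham and 9.85, 8.52 and 8.99 in the same groups at 24 h. Over the 50 arrays, after each group mean was subtracted, Gckr and Bmal1 had r = 0.47 (permutation p = 0.00727, adjusted p = 0.116 over 16 relations). None of those 16 relations, of the 8 genes with Dbp or Bmal1, had an adjusted p under 0.05. The part of the clock in the differences at 24 h and at the later times was not tested.

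Pklr encodes the liver and red cell isoform of pyruvate kinase, the last enzyme of glycolysis, and its liver promoter is a textbook target of the carbohydrate response factor ChREBP, which binds paired E-box-like sites. The 250 bases before its start, on the plus strand of chr2:176841014-176841263 of GRCr8, as held in RefSeq, are shown because they contain such a pair. Capitals mark the letters CACGGG and their reverse complement CCCGTG, a search added after the sequence had been seen.
Pklr: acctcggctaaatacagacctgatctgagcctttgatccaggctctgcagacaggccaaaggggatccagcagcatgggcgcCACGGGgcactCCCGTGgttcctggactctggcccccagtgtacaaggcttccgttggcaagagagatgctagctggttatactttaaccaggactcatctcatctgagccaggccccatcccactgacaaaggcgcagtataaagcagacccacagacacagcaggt
The pair begins 168 and 157 bases before the start. Either strand of CACGGG was found in 8.0% of 33469 rat windows of this length. The match is a description of letters, and binding was not measured.

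Sham livers had Pklr values of 10.49, 11.13, 11.17, 10.98 and 10.34, and vehicle livers at 24 h had 10.50, 9.36, 10.14, 9.91 and 9.69. All but 1 of the vehicle arrays lay below every sham array. Group means were 10.82 ± 0.38 and 9.92 ± 0.43 (SD, n = 5 each), a difference of -0.90 (SE 0.24, limma adjusted p = 0.0484). This call ended in 7 of the 10 fits that left out an array and in 5 of the 8 alternatives, with adjusted p up to 0.160. EPO at 24 h had the lowest mean of any group, 9.81 ± 0.38, and anakinra at 24 h had 10.19 ± 0.28. The 15 injured arrays at 24 h ran from 9.36 through a median of 10.08 to 10.50, and 12 of them lay below every sham array. Pooled, they differed from sham by -0.85 (1.80-fold, adjusted p = 0.0112), a call that ended without sham array 2, 3 or 4, with adjusted p up to 0.0801.

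At the later times Pklr returned toward the sham range, except with EPO at 72 h. Of the 30 later arrays, 18 lay within that range, 9 below and 3 above. With EPO at 72 h, 4 of 5 arrays lay below every sham array, and the mean differed from sham by -0.84. Vehicle, EPO and anakinra means were 10.50 ± 0.29, 9.99 ± 0.45 and 10.48 ± 0.53 at 72 h, and 10.49 ± 0.52, 10.83 ± 0.33 and 10.84 ± 0.27 at 7 days. Pooled, the 24 h groups were lower than the later groups by a difference of -0.55 (1.46-fold, adjusted p = 0.00256), and this call held without any single array and in every alternative. In that comparison 3 of 8 genes were called, 2 lower and 1 higher at 24 h, against 4.62% of all genes. Of the cell type markers, 8 of 9 erythroid and 3 of 8 Kupffer cell markers were lower at 24 h than later and 1 of 9 hepatocyte markers was higher, and their part in the 3 calls was not tested. EPO and vehicle at 72 h differed by -0.51 (adjusted p = 0.221), and 4 of the 5 EPO arrays lay below every vehicle array.

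Pfkfb1 encodes the liver form of the enzyme that both makes and removes fructose 2,6-bisphosphate, the activator of phosphofructokinase. Sham values were 10.10, 10.25, 10.35, 10.02 and 9.85. The 30 later arrays ran from 8.58 through a median of 9.21 to 10.19, and 28 of them lay below every sham array. The difference was -0.88 (SE 0.16, 1.84-fold, limma adjusted p = 0.00359), and it passed without any single array, with adjusted p up to 0.0299. At 24 h, 12 of 15 arrays lay below every sham array, but the pooled difference of -0.46 was not a call (limma adjusted p = 0.252). It became a call with array weights (0.0413). Group means at 24 h were 9.68 ± 0.18 with vehicle, 9.58 ± 0.16 with EPO and 9.70 ± 0.53 with anakinra.

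With the arms pooled, Pfkfb1 was higher at 24 h than later by 0.42 (adjusted p = 0.0109), a call that held in each fit without an array and in every alternative. The vehicle arm alone was lower at 72 h (9.36) than at 24 h (9.68), but was again at 9.68 at 7 days. EPO and anakinra at 7 days had 8.81 and 9.16. The 72 h means were 9.36 ± 0.29 with vehicle, 9.22 ± 0.50 with EPO and 9.20 ± 0.53 with anakinra. In the vehicle arm alone the 3 times gave no call (limma F test, unadjusted p = 0.211), and 1 of the 5 vehicle arrays at 7 days lay within the sham range.

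EPO at 7 days had the lowest Pfkfb1 mean of any group. Its values were 8.68, 8.97, 8.93, 8.74 and 8.72, against 9.83, 9.62, 10.19, 9.07 and 9.69 with vehicle at the same time. No EPO array reached the lowest vehicle array. The means were 8.81 ± 0.13 and 9.68 ± 0.41 (SD, n = 5 each), a difference of -0.87 (1.83-fold, limma adjusted p = 0.0400). It was the 1 call among 8 genes for EPO at 7 days, against 0.365% of all genes, and the 1 drug call among the 8 genes at any time. Leaving out any 1 of vehicle arrays 1, 2, 3 and 5 and EPO arrays 1, 3, 4 and 5 ended the call, with adjusted p up to 0.177. It also ended with array weights (0.0898) and without the 5 arrays of lowest spread (0.185).

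Anakinra at 7 days gave 9.16 ± 0.23, a difference from vehicle of -0.52 that was not a call. The change of the EPO difference with time was not a call either (F test, adjusted p = 0.484), and 0 of 8 genes passed that test, against 0.214% of all genes. For anakinra 0 of 8 passed it, against 0% of all genes, of which 402 had an unadjusted p under 0.05. Erythroid markers moved with EPO. Their summed level ran from 12.45 to 13.73 in EPO livers at 7 days and from 10.11 to 11.38 in vehicle livers, with 7 of 9 markers higher by the test. The hepatocyte markers ran from 16.20 to 16.31 and from 16.25 to 16.34, with none of 9 called, and the part of the erythroid RNA in the Pfkfb1 difference was not tested.

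**Figure D2:**
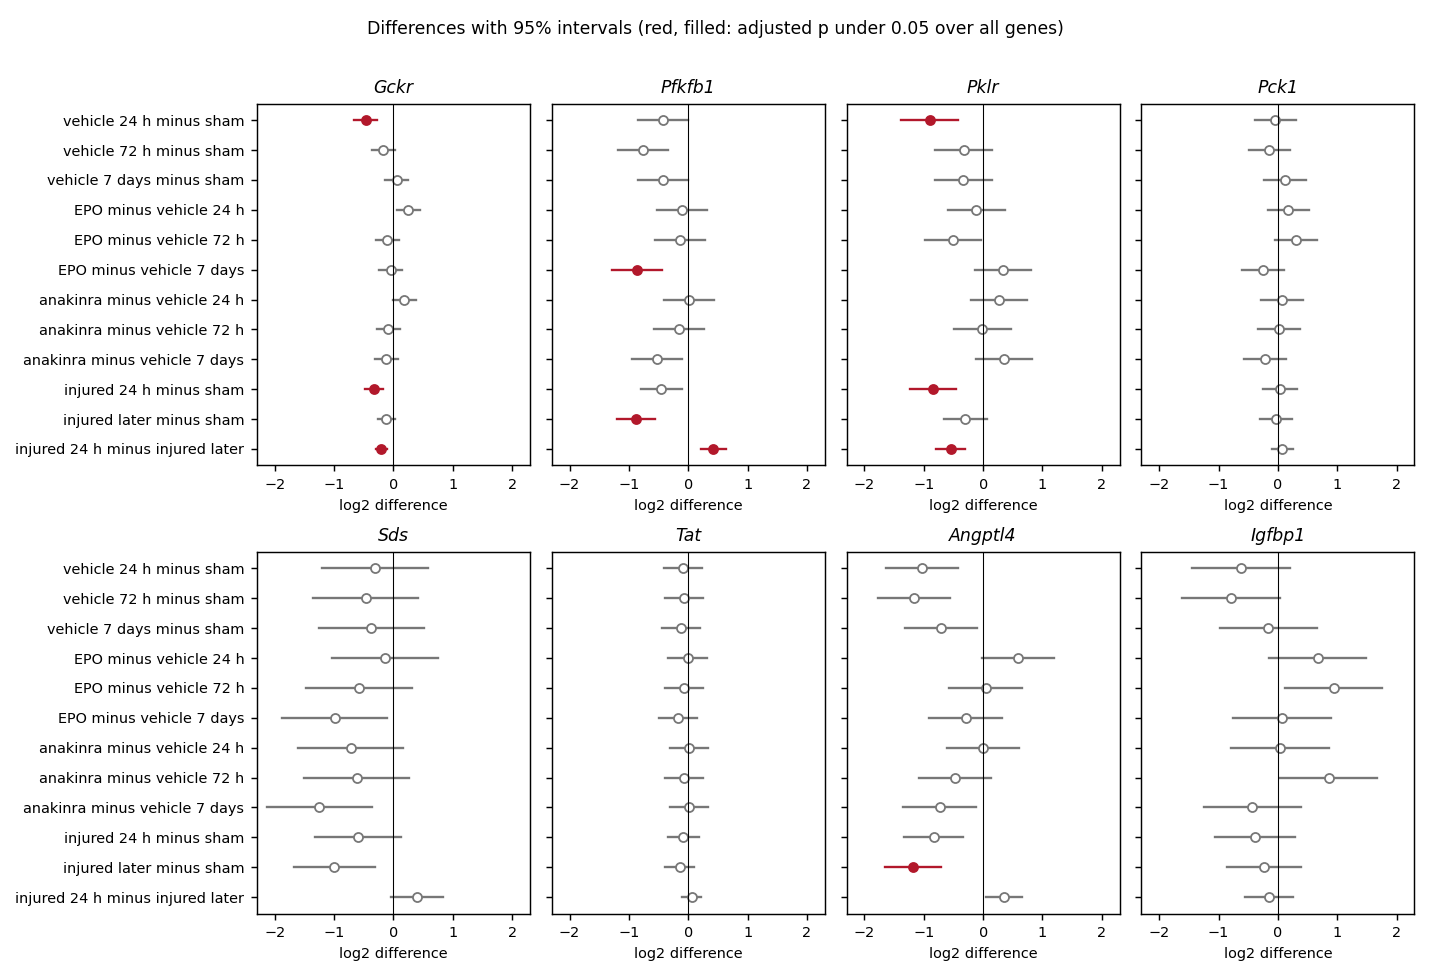
Differences on the log2 scale for the 8 genes in the comparisons of 2 groups or pooled groups, with 95% intervals from limma; filled symbols passed an adjusted p of 0.05. Gckr and Pklr are called below sham at 24 h, Pfkfb1 and Angptl4 below sham at the later times, and the single drug call is Pfkfb1 with EPO at 7 days. Pfkfb1 and Angptl4 also lie below sham with the 24 h groups pooled, without a call.

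Pck1 encodes the cytosolic phosphoenolpyruvate carboxykinase, the committed step of gluconeogenesis, and its promoter is the standard example of a cAMP response element in liver. The 250 bases before its start, on the plus strand of chr3:182348322-182348571 of GRCr8 from RefSeq, are shown because they hold that element. Capitals mark the core letters TGACGT of that element, here as their reverse complement ACGTCA, and CACGGG.
Pck1: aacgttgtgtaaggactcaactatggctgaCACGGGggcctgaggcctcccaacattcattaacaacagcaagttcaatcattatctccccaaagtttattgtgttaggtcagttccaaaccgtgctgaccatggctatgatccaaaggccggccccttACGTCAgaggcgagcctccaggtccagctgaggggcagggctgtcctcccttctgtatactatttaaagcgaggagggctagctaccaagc
The element begins 91 bases before the start. On either strand its core letters occur in 6.9% of rat windows.

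No comparison called Pck1, although its arrays spanned a 2.60-fold range and its within-group SD of 0.29 was above that of 93.3% of genes. Group means ran from 12.48 ± 0.30 with vehicle to 12.79 ± 0.16 with EPO, both at 72 h, and sham had a median of 12.53 and a range of 12.38 to 13.00. Of the 15 injured arrays at 24 h, 13 lay within the sham range, and of the 30 later ones, 25. The difference from sham was 0.04 at 24 h (95% interval -0.25 to 0.32) and -0.04 later (95% interval -0.30 to 0.23). The difference between EPO and vehicle at 72 h was 0.31 (95% interval -0.04 to 0.66, adjusted p = 0.309).

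Sds and Tat feed amino acid carbon into gluconeogenesis: Sds encodes serine dehydratase, which turns serine into pyruvate, and Tat encodes tyrosine aminotransferase, a classic glucocorticoid-induced liver enzyme. Sds in sham was 10.10, 9.98, 10.27, 10.22 and 9.22, and the other arrays ran from 7.08 to 10.52, so single livers of the study differed by up to 10.9-fold. The within-group SD of Sds, 0.75, was higher than that of 99.8% of genes. The lowest group means were 8.34 ± 1.07 with anakinra and 8.59 ± 0.30 with EPO at 7 days, against 9.58 ± 0.40 with vehicle.

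All 5 EPO arrays and 4 of 5 anakinra arrays of Sds at 7 days lay below every vehicle array at that time. The differences were -0.99 (95% interval -1.88 to -0.11, adjusted p = 0.928) and -1.25 (95% interval -2.14 to -0.36, adjusted p = 0.506), and neither was a call. A fit of only the groups compared gave the EPO difference an adjusted p of 0.0401. Over the later groups, 21 of 30 arrays lay below every sham array. That difference was -0.997 (SE 0.34, adjusted p = 0.121), which became a call with array weights (0.0131).

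Tat had group means from 12.29 ± 0.27 with EPO at 7 days to 12.59 ± 0.40 in sham. All 15 arrays at 24 h and 28 of the 30 later ones lay within the sham range, and the differences from sham were -0.09 (95% interval -0.35 to 0.18) and -0.15 (95% interval -0.39 to 0.10). No comparison called it.

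Angptl4 encodes a secreted inhibitor of lipoprotein lipase that fasting raises through PPAR-alpha and glucocorticoids. Sham values were 10.49, 10.38, 9.93, 10.20 and 10.25. The 30 later arrays ran from 8.20 through a median of 9.03 to 9.97, and 29 of them lay below every sham array. The difference was -1.18 (SE 0.23, 2.27-fold, limma adjusted p = 0.00661), and it ended as a call only without sham array 2, with adjusted p = 0.0504. The mean of every later group lay below that of sham, 10.25 ± 0.21. Means at 72 h were 9.09 ± 0.42 with vehicle, 9.13 ± 0.29 with EPO and 8.61 ± 0.36 with anakinra, and at 7 days 9.54 ± 0.38, 9.24 ± 0.67 and 8.81 ± 0.41. At 24 h, 12 of 15 arrays lay below every sham array. The pooled difference was -0.84 (limma adjusted p = 0.0890), which became a call with array weights (0.00394). The 24 h groups differed from the later ones by 0.35 (adjusted p = 0.222). That became a call with array weights (0.0326) and without the 5 arrays of lowest spread (0.0229).

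No single time in the vehicle arm gave a call for Angptl4. Vehicle at 24 h had a mean of 9.22 ± 0.93 with arrays from 7.67 to 10.15, a difference from sham of -1.03 (adjusted p = 0.0892), which became 0.0305 without vehicle array 5. Without vehicle array 3, the lowest of the group and also 1 of the 5 arrays of lowest spread, the difference was -0.65 (adjusted p = 0.512). Vehicle at 72 h differed by -1.17 (adjusted p = 0.326, and 0.0345 with array weights), with all 5 arrays below every sham array. For vehicle at 72 h and at 7 days against sham, 0 of 8 genes were called by limma, against 0% of all genes. At an unadjusted p under 0.05, 2 of the 8 genes were lower in each, and 1757 and 946 of all genes passed.

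Angptl4 is also made by fat. The adipose markers, 8 of 8 measured, had a summed level of 10.79 to 11.07 in sham, 10.72 to 11.17 at 24 h and 10.46 to 11.04 later. Adipoq, Plin1, Lep and Fabp4 had means of 5.96, 6.29, 6.24 and 5.36, below every array median, and Retn, Cfd, Lipe and Cidec had means of 6.93, 7.22, 8.05 and 9.91, above them. None of the 8 markers was called between later and sham, and the part of fat in the Angptl4 difference was not tested. Erythroid markers were higher in the later groups, with 4 of 9 called, and their part in the Angptl4 and Pfkfb1 differences was not tested. In the vehicle arm at 7 days the summed erythroid level was 10.11 to 11.38, Angptl4 differed from sham by -0.71 and Pfkfb1 by -0.43, and neither was a call (adjusted p = 0.757 for both).

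Igfbp1 encodes an insulin-like growth factor binding protein that insulin represses within hours through an insulin response element read by FOXO factors. The 250 bases before its start, on the plus strand of chr14:86261027-86261276 of GRCr8 from RefSeq, are shown for that element. Capitals mark the core CAAAACA, and CACGGG with its reverse complement.
Igfbp1: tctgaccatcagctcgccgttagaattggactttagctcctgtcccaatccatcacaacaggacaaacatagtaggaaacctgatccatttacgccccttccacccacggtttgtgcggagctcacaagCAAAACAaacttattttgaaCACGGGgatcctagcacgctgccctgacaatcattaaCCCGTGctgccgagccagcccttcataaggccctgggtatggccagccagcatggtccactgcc
The core begins 121 bases before the start, and on either strand it occurs in 5.5% of rat windows. The other searches were CACGTG (5.6% of windows), the forkhead letters TGTTTAC (3.2%) and the glucocorticoid receptor letters TGTTCT (17.5%), each on both strands. Of the 7 genes with a RefSeq window, TGTTCT was in that of Gckr, CCCGTG in that of Angptl4, and none of the letters in those of Pfkfb1 and Tat.

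Igfbp1 varied widely between arrays and gave no call. Arrays ran from 7.63 to 10.90, a 9.66-fold range, and group means from 8.69 ± 0.85 with vehicle to 9.63 ± 0.45 with EPO, both at 72 h. Anakinra at 72 h had 9.55 ± 0.19. The differences from vehicle at 72 h were 0.94 with EPO (95% interval 0.12 to 1.76, adjusted p = 0.193) and 0.86 with anakinra (95% interval 0.04 to 1.68, adjusted p = 0.463). Sham values spanned 7.99 to 10.24 and covered 14 of 15 arrays at 24 h and 27 of 30 later ones. That range rested on sham array 1: without it, sham spanned 9.62 to 10.24, and 11 of 15 arrays at 24 h and 20 of 30 later ones lay below it.

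The remaining drug comparisons gave no call among the 8 genes. For EPO at 24 h and 72 h, 0 of 8 passed, against 0.0276% and 2.72% of all genes. For anakinra at 24 h, 72 h and 7 days, 0 of 8 passed, against 0%, 0% and 0.0138%, with 616 and 1546 of all genes at an unadjusted p under 0.05 at 24 h and 72 h. At an unadjusted p under 0.05 by limma, 1 and 2 of the 8 genes passed for EPO at 24 h and 72 h, against 10.8% and 20.0% of all genes, and 0, 1 and 3 for anakinra at the 3 times, against 4.25%, 10.7% and 7.62%. The 2.72% called for EPO at 72 h became 1.41% and 5.41% when vehicle array 2 or 4 was dropped, and 10.5% and 1.70% when EPO array 1 or 2 was dropped.

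Within groups the genes moved together in part. After each group mean was subtracted, 6 of the 28 pairs correlated over the 50 arrays at an adjusted p under 0.05, each with a positive sign. Pck1 and Igfbp1, the cAMP- and insulin-controlled pair, had r = 0.49 and rho = 0.49 (permutation p = 0.00019 and 0.00081, adjusted p = 0.0035 and 0.00812 over 28 pairs). Without the 2 arrays whose Pck1 deviation lay farthest from the median, r was 0.51. In each pair these arrays were chosen by 1 gene, never by Tat or Igfbp1, so extreme values of those 2 genes were not addressed. Sds and Tat had r = 0.52 and rho = 0.53 (permutation p = 0.00025 and 0.00028, adjusted p = 0.0035 and 0.00784), and r = 0.50 without the 2 arrays farthest in Sds.

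Tat also correlated with Pklr (r = 0.41, rho = 0.44, permutation p = 0.0054 and 0.00392, adjusted p = 0.0279 and 0.022) and with Pck1 (r = 0.37, rho = 0.40, permutation p = 0.00598 and 0.00746, adjusted p = 0.0279 and 0.0348). Without the 2 arrays farthest in Pklr, and the 2 farthest in Pck1, these were r = 0.45 and r = 0.47. Pfkfb1 correlated with Tat (r = 0.50, rho = 0.51, permutation p = 0.0008 and 0.00106, adjusted p = 0.00747 and 0.00812) and with Sds (r = 0.54, rho = 0.52, permutation p = 0.00153 and 0.00116, adjusted p = 0.0107 and 0.00812). Those last relations rested partly on the 2 arrays farthest in Pfkfb1, without which r was 0.40 (adjusted p = 0.053) and 0.45 (adjusted p = 0.0675). All 6 kept an adjusted p under 0.05 without the 5 arrays of lowest spread. Arrays share tissue makeup and RNA quality, and their part in the correlations was not tested.

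**Figure D3:**
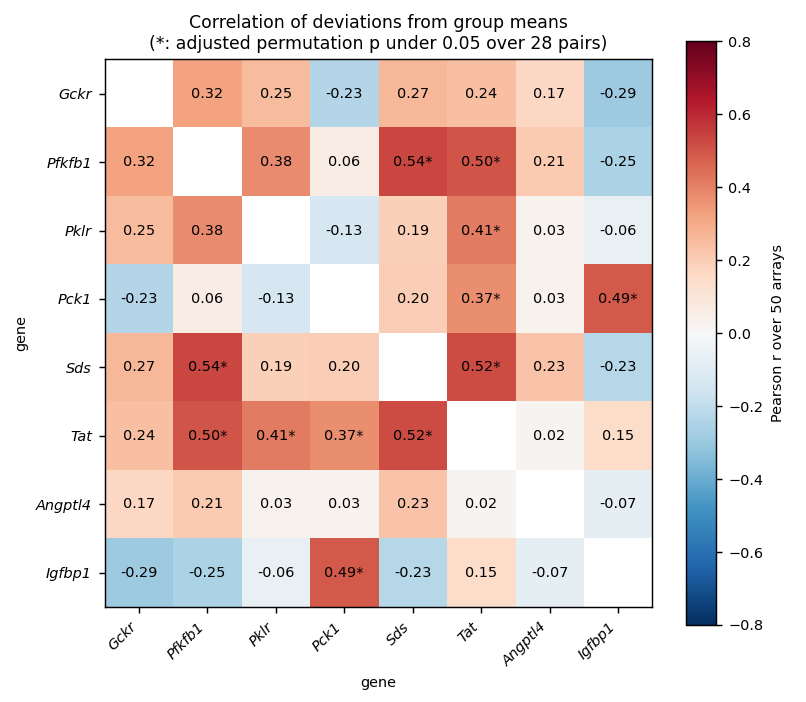
Pearson r of the 28 pairs of genes over 50 arrays, after subtraction of each group mean; the colour shows the size and sign of r, and cells with an asterisk have a permutation p, adjusted over 28 pairs, under 0.05. The 6 pairs so marked are positive and 4 of them include Tat.

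**Figure D4:**
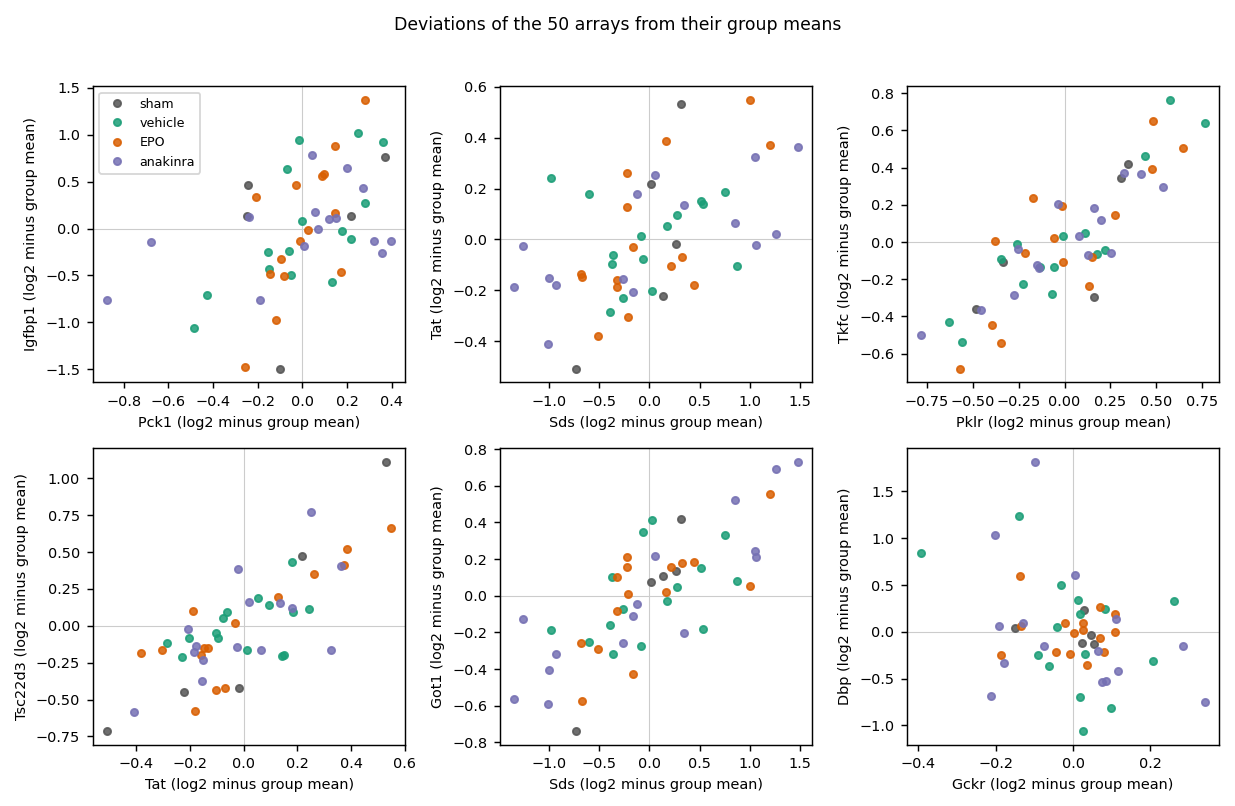
Deviations from the group mean on the log2 scale for 6 pairs of genes, 1 point an array (50 arrays), coloured by arm. Pck1 against Igfbp1 (r = 0.49) and Sds against Tat (r = 0.52) rise together, as do Pklr with Tkfc (0.85), Tat with Tsc22d3 (0.78) and Sds with Got1 (0.77), while Gckr against Dbp slopes down (-0.36, not under 0.05 after adjustment). Tkfc, Tsc22d3 and Got1 had the highest r with their member among 7889 genes searched. Their high r follows from that choice and was not tested.

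The genes whose deviations were most like those of each member, among 7889 genes with a mean of at least 7, were listed as a description. For Pklr they were Tkfc (r = 0.85), Gbe1 (0.75) and Gpd2 (0.72), and for Tat they were Tsc22d3 (0.78), Bcl6b (0.77) and Adamts1 (0.76). For Sds they were Got1 (0.77), Ass1 (0.72) and Mbnl3 (0.70), and Got1 also led for Pfkfb1 (0.65), followed by Mcm10 and Usp2 (0.60 each). Tymp (0.74), Agxt2 (0.71) and Lpin3 (0.69) were closest to Gckr. Slc25a30 (0.71), Ammecr1l (0.67) and Wasf1 (0.64) were closest to Angptl4. For Pck1 the highest were Pim3 (0.64), Tp53inp1 and Ddi2 (0.60 each), and for Igfbp1 they were Depp1 (0.63), Ip6k2 and G6pc1 (0.53 each). G6pc1 encodes the catalytic subunit of glucose-6-phosphatase, the last step of gluconeogenesis.

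Genes of the same pathways were counted from 9 lists. At 24 h against the later times, 5 of 18 carbohydrate-fed genes were lower and none higher. Pklr itself is among the 5. Fads2, a fatty acid desaturase, differed by -0.30 (limma adjusted p = 0.000225), and Tkt, the transketolase of the pentose phosphate path, by -0.33 (0.0018). Of 12 glycogen genes, 4 were lower and 1 higher. Those lower included Gyg1, the glycogenin primer, at -0.29 (0.000361), and Ugp2, which makes UDP-glucose, at -0.31 (0.00547), while Epm2a, the glycogen phosphatase laforin, was higher by 0.28 (0.00348). Of 19 genes of glycolysis and glucose entry, Tkfc, which handles the fructose product glyceraldehyde, differed by -0.59 (0.000508) and Hk1 by -0.16 (0.0133), and none was higher. Hk1 had group means of 7.01 to 7.03 in sham and at 24 h and 7.02 to 7.09 in the later vehicle and anakinra groups, and 7.57 and 7.25 with EPO at 72 h and 7 days, the groups in which erythroid markers were also higher.

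On the fasting side of the same comparison, 4 of 24 amino acid genes were higher and 1 lower. Those higher included Tdo2, the tryptophan dioxygenase, by 0.15 (limma adjusted p = 0.0133) and Aass, of lysine breakdown, by 0.20 (0.0249), and Cth, the cystathionine lyase, was lower at -0.21 (0.015). Of 18 gluconeogenesis genes, Got1, the cytosolic aspartate aminotransferase, was higher by 0.36 (0.0374) and Gpd1 lower at -0.21 (0.0474). Got1 is in both lists, so it is also among the 4 amino acid genes that were higher. The Got1, Gpd1 and Aass calls ended without the 5 arrays of lowest spread (0.0549, 0.0671 and 0.0649) and in 11, 33 and 2 of the 45 fits that left out an array (up to 0.108, 0.115 and 0.0732). Of 15 fasting-raised targets, 1 was called: Cpt1a, the gate of fatty acid entry to mitochondria, was higher by 0.57 (0.00097). None of 20 insulin and glucagon signalling genes, 20 fasting transcription regulators or 11 glucocorticoid targets was called. Over all genes tested, 1.88% were higher and 2.74% lower.

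Against sham, the injured groups at 24 h had Tkfc at -0.82 (limma adjusted p = 0.00738), which was not a call without sham array 2 or 3 (up to 0.0722), and Ugp2 at -0.52 (0.00916), which held without any single array. Epm2a was higher by 0.43 (0.016, up to 0.109 without sham array 1, 4 or 5), and Scd, the stearoyl-CoA desaturase, was 3.32-fold lower (0.0477), a call lost in 14 of 20 fits that left out an array. By list, the calls at 24 h were 1 of 19 glycolysis, 2 of 18 carbohydrate-fed and 3 of 12 glycogen genes lower with 1 glycogen gene higher, 1 of 20 fasting regulators lower, and 2 of 15 fasting-raised targets and 1 of 11 glucocorticoid targets higher, against 1.23% of all genes, and the other 3 lists had no call. The carbohydrate-fed list includes Pklr. The calls not yet named were Pygl (-0.31), Gbe1 (-0.42), Crem (-0.52), Cyp4a1 (0.64), Sik2 (0.26) and Fkbp5 (0.39). Of 20 fits that left out an array, 7 ended the Pygl call, 4 that of Crem, 3 that of Cyp4a1, 13 that of Sik2 and 14 that of Fkbp5. No such count was made for Gbe1 in this comparison. For vehicle alone at 24 h against sham, its call was lost in 8 of 10 fits that left out an array. With vehicle alone at 24 h against sham, the fasting-raised and glucocorticoid target lists each had 1 call, and it was lower, against 0.827% of all genes called. Plin2 differed by -0.83 (limma adjusted p = 0.023) and Cdkn1a by -1.09 (0.0212), lost in 5 and 4 of 10 fits that left out an array. In that comparison 12 of the 15 fasting-raised targets and 5 of the 11 glucocorticoid targets had a positive difference. Over all genes tested, 8418 of 14506 did. The other calls there were 1 of 19 glycolysis, 2 of 18 carbohydrate-fed, 1 of 20 fasting regulator and 2 of 12 glycogen genes lower, and 1 glycogen gene higher. In the pooled later groups against sham, the 9 lists together held 2 calls, where 1.01% of all genes were called. Both were of the 20 fasting regulators and both were lower. Nr3c1, the glucocorticoid receptor, differed by -0.48 (0.0183, up to 0.157 without sham array 1, 2 or 3). Crem, a cAMP-responsive repressor, differed by -0.47 (0.0422), which was lost in 9 of 35 fits without an array (up to 0.183) and with rescaled arrays (0.0599). In EPO livers at 72 h, Hk1, the hexokinase of most tissues outside the liver cell, was higher than with vehicle by 0.48 (9.50e-05), and Pkm, the pyruvate kinase of those tissues, by 0.37 (0.0256). A fit of only the groups compared ended both calls (0.162 and 0.289), and the Pkm call was also lost when vehicle array 2, or any 1 of EPO arrays 2, 4 and 5, was left out (up to 0.117). Fkbp5, a glucocorticoid target, was the other called gene of the 9 lists there, higher by 0.48 (0.0248), a call lost in 6 of 10 fits without an array and in 3 of 8 alternatives (up to 0.251). Over all genes tested, 2.72% were called in that comparison. All 9 erythroid, all 8 Kupffer cell, 4 of 8 neutrophil, 3 of 7 lymphocyte and 3 of 6 endothelial markers were higher in the same comparison, and their part in the Hk1 and Pkm differences was not tested.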

How the data were processed

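RNA of 50 liver samples was hybridised, 1 sample an array, to Rat Gene 1.0 ST arrays of Affymetrix. The deposited series table holds log2 values, which the authors made by RMA with the oligo package, per the submitters' processing notes; no source read here names a version. RMA compresses differences between dim probe sets. Of 29214 probe sets, 15310 had 1 gene symbol in the platform annotation, 323 several and 13581 none. The probe set of highest mean was kept per gene (527 genes had several), which left 14506 genes.

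Groups came from the sample titles. One mean per group was fitted over all 50 arrays with limma 3.58.1 (R 4.3.3), with empirical Bayes moderation and Benjamini-Hochberg adjustment over all genes within each comparison; the threshold was 0.05. Intervals are 95% and unadjusted. The fit was tested on simulated data. Correlations used deviations from group means, with 100000 permutations within groups; clock relations, and counts without a sham array that stood apart, were added after seeing the data. The number of arrays limits the precision.

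Named list genes are up to 3 of smallest p per pathway list and comparison; likeness used genes with a mean of at least 7. Genes and lists were chosen with earlier results of these data known. Promoter windows of 7 of the 8 genes came from RefSeq (GRCr8).

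Alternatives were array weights, trended robust moderation, fits of only the groups compared, a floor of 6 on the mean, the mean of all probe sets, a replicate block, rescaled arrays, leaving out the 5 arrays of lowest spread, and leaving out each array.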

Additional observations from a re-analysis of the deposited data

Results flagged for a closer look

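Single arrays stood apart from the other 4 of their group, by the gap to the nearest value over the group's range, in 6 of 80 groups of 5 arrays; chance gives about 5%. The lowest Gckr value in sham was 10.75 (array 2), with the next at 10.93. The lowest Sds value in sham was 9.22 (array 5), with the next at 9.98, and the lowest Igfbp1 value in sham was 7.99 (array 1), with the next at 9.62. With vehicle, the lowest Pfkfb1 value at 72 h was 8.84 (array 5), below 9.42, and the lowest Angptl4 value at 7 days was 8.86 (array 4), below 9.67. The highest Tat value with EPO at 24 h was 13.04 (array 1), above 12.42. The 3 sham values came from 3 different arrays.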

How the results depend on the processing

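Of 1016 values of the 8 genes recomputed under 8 other settings, 1000 kept their side of the threshold, 8 lost a call and 8 gained one. Of the 768 differences among them, 12 changed sign, each without a call and none larger than 0.38 in size. For vehicle at 24 h against sham, the 2 genes called became 1 with trended robust moderation, with only the groups compared, with rescaled arrays and without the 5 arrays of lowest spread. Array weights gave 1 gene in place of 0 for vehicle at 72 h against sham, 4 in place of 2 for injured livers at 24 h against sham, and 0 in place of 1 for EPO against vehicle at 7 days. That last count was also 0 without the 5 arrays of lowest spread, and 2 with only the groups compared, a setting that gave 0 in place of 1 for vehicle over time. The cause of these changes was not tested. With each array left out in turn, the counts ran from 1 to 2 for vehicle at 24 h, 0 to 1 for EPO at 7 days, 0 to 3 for injured at 24 h, 1 to 2 for injured later, 3 to 4 for 24 h against later, 0 to 1 for vehicle over time and 4 to 5 for all groups.

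Samples share only a number: deviations of same-numbered arrays had a mean r of 0.01, in 0 of 45 group pairs did every number exceed 0.1, and 16 of 50 arrays lay closest to their own number. The replicate block left 1 gene called for vehicle at 24 h against sham and changed no other count of the 8 genes.

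Over all genes, array weights moved the counts of calls from 120 to 267 for vehicle at 24 h against sham, 178 to 608 for injured at 24 h, 146 to 1116 for injured later, 670 to 1740 for 24 h against later, 823 to 2145 for all groups, 10 to 62 for vehicle over time, 31 to 111 for EPO by time, 4 to 23 for EPO at 24 h, 2 to 20 for anakinra at 7 days, and 0 to 5 and 2 for vehicle at 72 h and 7 days. Only the groups compared gave 48 for vehicle at 24 h, 0 for EPO at 24 h, 53 in place of 395 for EPO at 72 h, 0 for anakinra at 7 days, 3 for vehicle over time and 13 for EPO by time. Without the 5 arrays of lowest spread these were 79 for vehicle at 24 h, 2 for EPO at 24 h, 0 for anakinra at 7 days and 20 for EPO by time. The replicate block gave 1, 2 and 0 and rescaled arrays 2, 0 and 0 for vehicle at 72 h, vehicle at 7 days and anakinra at 7 days. Among arrays left out in turn, further moves over 1.5 times were 34 in place of 53 for EPO at 7 days without EPO array 1; 87 in place of 31 for EPO by time without EPO array 1 at 72 h; and, for vehicle over time, 18 and 23 in place of 10 without vehicle array 3 at 24 h or 5 at 72 h and 4 or 5 without array 2 or 5 at 24 h or 5 at 7 days. The counts of 4 for EPO at 24 h and 2 for anakinra at 7 days fell to as low as 0, and those of 0 for vehicle at 72 h and 7 days rose to at most 5 and 2.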
